A study of Mus musculus with 2 samples.

Results

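The cytokine-high cells of the repopulating mouse brain were defined by 9 genes of the inflammatory response, and they numbered 55 of the 553 filtered barcodes of the repopulation library and of the 1162 filtered barcodes in both libraries. Within the library from day 5 of repopulation (Repop D5), each barcode with at least 500 genes and under 10% of its UMIs (tags that count captured RNA molecules 1 by 1) from mt- genes was given a score. The score is the share of its UMIs that came from Tnf, Il1a, Il1b, Ccl4, Ccl3, Dusp2, Ccrl2, Tnfaip3 and Pim1, and the 10% of barcodes with the highest scores were taken. They are therefore the upper end of a continuous range and not a cell type of their own, and their high values of these 9 genes describe the choice and are no finding. The remaining 498 Repop D5 barcodes are called the other barcodes.

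Both libraries came from adult C57BL/6J mice, whose brains were dissociated with papain for 20 min at 37 °C, freed of myelin on Percoll, and sorted for live CD11b+/CD45+ cells before droplet (10x Genomics) RNA sequencing. For Repop D5, 6 mice were given PLX5622, which blocks the receptor Csf1r that most microglia need to survive, over 14 days, and control diet over the next 5 days, before their cells were pooled. For CD, cells of 4 mice on control diet over 19 days were pooled. Each group is 1 library with no replicate, and nothing in the labels ties a barcode to a mouse, so there is no test between groups or between barcodes. Every interval below covers counting error only.

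Microglia are the resident macrophages of the brain, and after loss through Csf1r inhibition the survivors divide and refill the tissue. When such cells sense microbial products or damage, the transcription factor NF-kB enters the nucleus and switches on secreted mediators, among them tumour necrosis factor (Tnf), interleukin 1 alpha and beta (Il1a, Il1b) and the chemokines Ccl3 and Ccl4, which attract leukocytes. NF-kB also switches on its own brakes, such as the inhibitor Nfkbia and the ubiquitin-editing enzyme Tnfaip3 (A20). Immediate early genes such as Fos, Jun and Egr1 respond within minutes to many stimuli, warm enzymatic dissociation of brain tissue among them.

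The upstream DNA of 4 of the genes described below, 1 from the rule and 3 that the rule did not use, shows how such a site looks. Each line gives the 250 bases before the annotated start of the gene, read 5′ to 3′ on the gene's own strand from the RefSeq promoter table of build GRCm38.p6, with matches to the NF-kB consensus in capitals.
Tnfaip3 (chr10:19015411-19015660, minus strand): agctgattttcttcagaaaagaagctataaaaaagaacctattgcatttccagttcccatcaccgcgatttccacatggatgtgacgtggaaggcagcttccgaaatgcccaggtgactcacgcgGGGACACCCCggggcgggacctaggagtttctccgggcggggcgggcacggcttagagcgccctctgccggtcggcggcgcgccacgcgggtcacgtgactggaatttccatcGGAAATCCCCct
Nfkbia (chr12:55492648-55492897, minus strand): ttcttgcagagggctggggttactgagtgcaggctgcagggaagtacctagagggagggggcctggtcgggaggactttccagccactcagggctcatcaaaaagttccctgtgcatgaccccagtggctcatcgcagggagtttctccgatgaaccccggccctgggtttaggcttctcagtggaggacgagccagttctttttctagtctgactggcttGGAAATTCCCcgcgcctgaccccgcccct
Cxcl10 (chr5:92348890-92349139, minus strand): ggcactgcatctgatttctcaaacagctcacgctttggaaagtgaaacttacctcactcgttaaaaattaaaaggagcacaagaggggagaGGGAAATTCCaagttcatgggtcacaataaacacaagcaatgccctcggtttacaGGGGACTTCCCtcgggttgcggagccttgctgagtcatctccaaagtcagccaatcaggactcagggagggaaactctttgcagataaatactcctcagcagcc
Ier3 (chr17:35821463-35821712, plus strand): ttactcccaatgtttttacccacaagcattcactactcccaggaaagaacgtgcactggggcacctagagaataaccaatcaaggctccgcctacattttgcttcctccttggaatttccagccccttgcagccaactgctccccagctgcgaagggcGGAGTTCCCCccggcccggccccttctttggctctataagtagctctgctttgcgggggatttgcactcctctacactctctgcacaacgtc
Counted from the RefSeq starts, the matches begin 125 and 12 bases before that of Tnfaip3 and 29 before that of Nfkbia. They begin 159, 104 and 103 bases before that of Cxcl10, where the nearer pair overlap, and 92 before that of Ier3. In the GENCODE M21 annotation Tnfaip3 spans chr10:19000910-19015657, so both of its matches lie within the gene as placed there. Ier3 starts at chr17:35821684 in that annotation, inside its printed stretch but after the match. The 4 were shown because they hold a match, so they are examples and not a sample. Motifs were searched on both strands of the 250 bases, and a gene with several promoters counts where any holds a match. The consensus was present in 7.25% of all 32851 promoters of the table, a share by promoter and not by gene. Counted by gene, it was present in 2 of the 8 rule genes found there (Ccrl2 and Tnfaip3). Among the 20 named higher genes given below, 16 were found and 6 held it (Fos, Nfkbia, Cxcl10, Ier3, Nfkbid and Fosb). Among the 12 named lower genes, 10 were found and 1 held it. Counted by promoter, it was present in 2 of 12 for the rule genes, 6 of 18 for the higher and 3 of 18 for the lower ones. The AP-1 letters TGANTCA occurred in 6.75% of all promoters and in 1 of those 16 higher genes (Cxcl10). The cyclic AMP element TGACGTCA occurred in 1.55% of all promoters and in 4 of the 16 (Ppp1r15a, Dusp1, Nfkbid and Btg2). By promoter, these 2 motifs were in 1 of 18 and 4 of 18. A match is a run of letters and not a measured binding site, and the data hold no measure of factor binding.

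The score ran over a wide range with no gap at the cut. The cytokine-high barcodes had between 0.121% and 1.35% of their UMIs from the 9 genes, with a median of 0.200%. The other barcodes had between 0% and 0.121%, with a median of 0.0240%, and 34 of them had no UMI of any of the 9 genes. The lowest barcode taken had 15 of 12391 UMIs from the 9 genes and the highest barcode not taken had 22 of 18238, and 7 barcodes lay within 10% of the cut on either side of it. The 3 highest scores were 1.35%, 1.05% and 0.794%. The cytokine-high barcodes held 47.9% of all Repop D5 UMIs of the 9 genes while holding 9.24% of all UMIs.

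**Figure D1:**
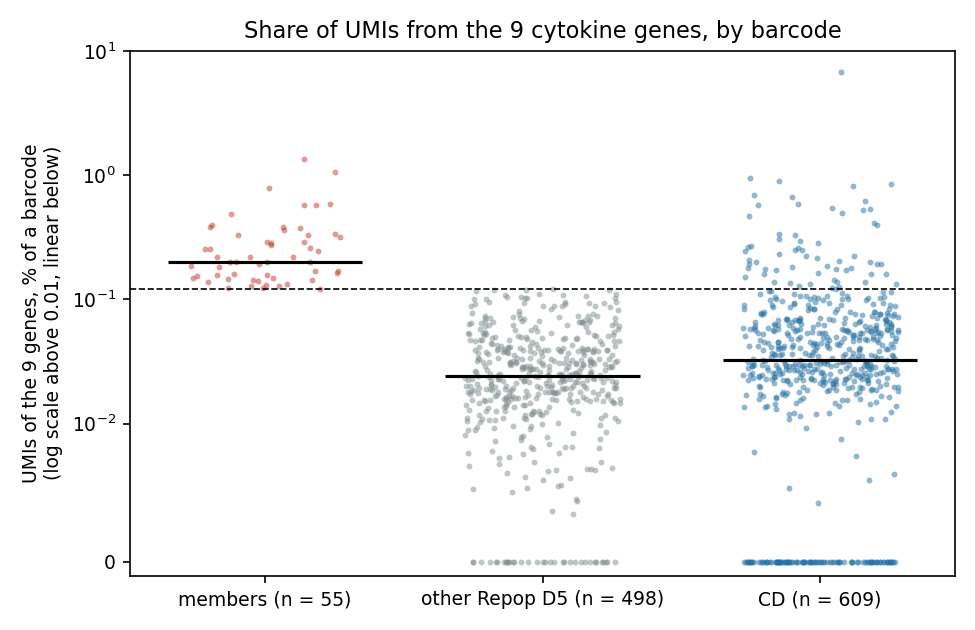
Each point is 1 filtered barcode, in the cytokine-high set (members), the other Repop D5 barcodes and CD, with the share of its UMIs from the 9 rule genes in percent on an axis that is logarithmic above 0.01 and linear below, bars at the medians and a dashed line at the lowest barcode taken. The 55 cytokine-high barcodes continue the range of the other 498 without a gap, and 62 of 609 CD barcodes lie at or above the line.

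The cytokine-high and the other barcodes were sequenced to a like depth. The cytokine-high ones had a median of 16264 UMIs and 3747 genes, against 16223 UMIs and 3668 genes in the other barcodes. In the median, mt- genes took 4.57% of UMIs in the cytokine-high barcodes and 4.82% in the others, and ribosomal protein genes 23.3% and 23.5%. In all, the Repop D5 library had 11037921 UMIs over the 553 filtered barcodes, 32 of 585 having been left out for their mt- share, and the CD library 6055886 UMIs over 609 barcodes, all of which passed, with a median of 5982 per barcode. The labels state 585 and 609 cells, which is the number of barcodes in the matrices. The 2 libraries share 1 barcode sequence, which is not among the cytokine-high ones. Doublets were not removed.

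The cytokine-high barcodes carried the markers of microglia at the level of the rest of their library. All 12 microglia markers looked for were above 10 CPM (here the UMIs of a gene summed over a set of barcodes and scaled to that same total), and none differed by 1.5-fold or more. Csf1r itself was at 1273 CPM in the cytokine-high barcodes and 1393 CPM in the others, the fractalkine receptor Cx3cr1 at 1310 and 1440 CPM, Tmem119 at 792 and 826 CPM, and the purinergic receptor P2ry12 at 557 and 489 CPM. All of these were lower in both sets of Repop D5 barcodes than in CD, where P2ry12 was at 2988 CPM, Cx3cr1 at 5052 CPM and Csf1r at 3259 CPM.

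Cells of other kinds that the sort could hold were few among them. Barcodes with more UMIs of monocyte, neutrophil or border macrophage markers than of microglia markers numbered 1 of 55 cytokine-high barcodes and 16 of 498 others. The 1 was a barcode with 39.4% of its UMIs from neutrophil markers. The border macrophage markers Cd163, Lyve1, Cd209f, Cd209g and Clec10a were at 0 in the cytokine-high barcodes, and the 12 markers of that list summed to 197 CPM in them, against 263 CPM in the others. The monocyte list summed to 295 and 329 CPM, and the markers of T and NK cells, B cells, mast cells, erythroid cells and pericytes each summed to under 3 CPM in the cytokine-high barcodes. The neutrophil list summed to 2674 CPM in the cytokine-high barcodes and 2144 CPM in the others, and its one member 1.5-fold or more higher, Retnlg, at 175 and 88.1 CPM, a secreted protein of neutrophils, took 73.0% of its UMIs from the single neutrophil-marker barcode. Without that barcode Retnlg stood at 0.537 of the level in the others.

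Of the 9 rule genes, the pair of linked chemokine genes contributed most. Coordinates here and below are those of the gene in GENCODE M21, build mm10. Ccl3 (chr11:83647844-83649355) and Ccl4 (chr11:83662584-83664683) gave 53.2% of the rule UMIs in the cytokine-high barcodes and 41.4% in the others. Ccl4 was at 961 CPM (95% interval 902 to 1023) in the cytokine-high barcodes, 68.2 CPM in the others and 189 CPM in CD. Ccl3 was at 562 CPM (517 to 610), 63.2 CPM and 167 CPM in the same order of groups. Per barcode, Ccl4 in the cytokine-high set ran between 0 and 6033 CPM with a median of 475, against a median of 29.7 in the others, whose highest barcode reached 1003.

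The cytokines of the rule followed. Tnf (chr17:35199381-35202007) was at 361 CPM (325 to 400) in the cytokine-high barcodes, 42.4 CPM in the others and 31.4 CPM in CD. Il1a (chr2:129299610-129309972) was at 297 CPM (265 to 333) in the cytokine-high barcodes, 59.9 CPM in the others and 54.2 CPM in CD, and the neighbouring Il1b (chr2:129364570-129371139) was at 287 CPM (255 to 322), 30.2 CPM and 108 CPM. Expression was uneven even among the barcodes taken. The median barcode had 213 CPM of Tnf, 216 of Il1a and 110 of Il1b, the lowest had 0 of each, and the highest had 1836 of Tnf and 1933 of each interleukin gene.

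The rule's other genes are brakes, a receptor and a kinase. Tnfaip3 (chr10:19000910-19015657) was at 94.2 CPM in the cytokine-high barcodes, 9.48 CPM in the others and 39.6 CPM in CD. Dusp2 (chr2:127336159-127338376), a nuclear phosphatase of MAP kinases, was at 111, 8.58 and 17.0 CPM, and 28.3% of its UMIs in the cytokine-high set came from 1 barcode. Ccrl2 (chr9:111054486-111057519), a chemokine-binding receptor that does not signal like the classical ones, was at 112, 18.1 and 27.6 CPM. Pim1 (chr17:29490753-29496112), a survival kinase, was at 77.5, 17.1 and 32.7 CPM.

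How far these genes go together was described by leaving each out of the score in turn. The 9 genes were chosen with earlier results of these data known. High values of a gene left out were therefore likely beforehand and are no independent support for the set. Barcodes chosen on the other 8 genes still had more of the gene left out than the remaining Repop D5 barcodes, among them 4.17 times for Pim1, 9.16 times for Tnfaip3 and 9.38 times for Ccl4. Tnf was at 272 CPM in barcodes chosen without it and 53.5 CPM in the rest, a ratio of 5.08 (4.36 to 5.91), and Il1b was at 186 and 40.8 CPM, a ratio of 4.55 (3.81 to 5.43). The same procedure in CD gave smaller ratios for each of the 9 genes, among them 6.58 for Ccl4, 2.88 for Tnf and 1.56 for Tnfaip3. For Il1a the CD ratio was 1.07 (0.729 to 1.53), an interval that includes 1. In Repop D5 the Il1a ratio was 4.27 (3.70 to 4.93). CD barcodes had fewer UMIs each, and 100 of them had no UMI of the 9 genes. The difference between libraries, and the part of depth in it, was not tested.

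A second look used separate UMIs of the same barcodes for choosing and measuring. It keeps counting noise of the choice out of the values, but it is no independent support for the set. When barcodes were chosen with a random 50% of the UMIs, 45 of the 55 were the same, and in the unused UMIs the 9 genes stood between 4.92 times (Il1a) and 14.1 times (Dusp2) their level in the other barcodes.

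The cytokine-high barcodes were not alike in which of these genes they held. Ccl3 and Ccl4 were the largest contributors in 32 of the 55, Il1a and Il1b in 13, Tnf in 5, and the remaining genes of the rule in 5. In 27 barcodes Ccl3 and Ccl4 gave more of the rule UMIs than all the other genes together. The median cytokine-high barcode had at least 1 UMI of 6 of the 9 genes, with a range of 2 to 9, and the median of the others was 3, at nearly equal depth. At this depth 16 of the 55 had no UMI of Tnf and 3 had none of Ccl3 or Ccl4, which does not show that the genes were silent.

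**Figure D2:**
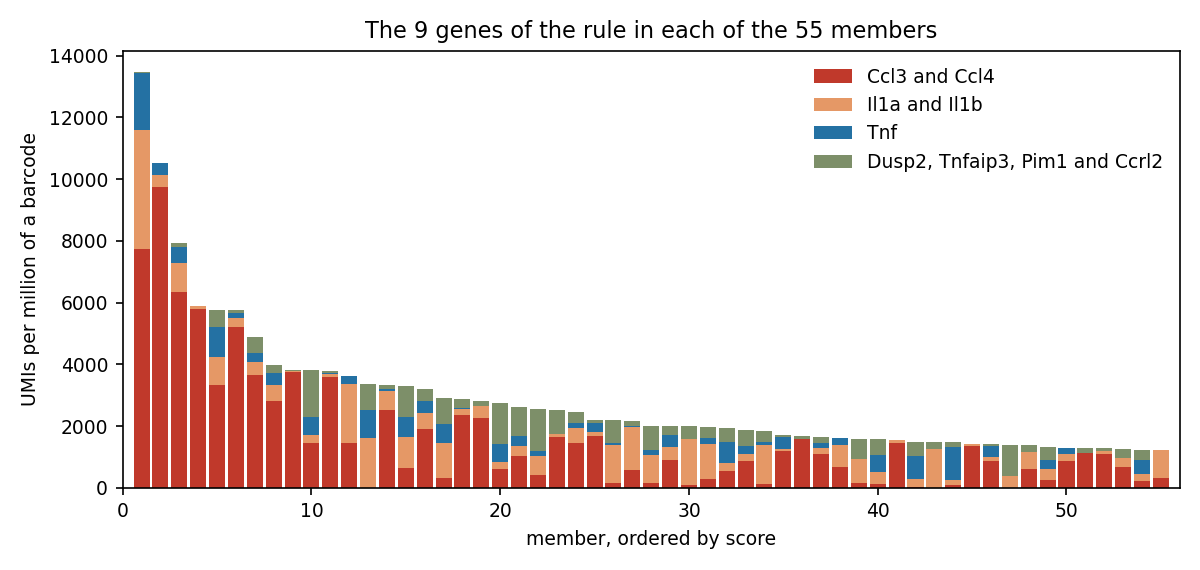
Each bar is 1 of the 55 cytokine-high barcodes (members), ordered by score, and its height is the level of the 9 rule genes (CPM of that barcode), stacked by Ccl3 and Ccl4, Il1a and Il1b, Tnf, and the other 4 genes. Ccl3 and Ccl4 make up the largest piece in 32 of the 55 bars, the tallest among them.

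Barcodes led by different cytokines also differed in genes outside the rule, which is described here without a test, since the leading gene was read from the same barcodes. NF-kB subunits and feedback genes made up a median of 0.285% of UMIs in the 13 barcodes led by interleukin 1, 0.251% in the 5 led by feedback genes, 0.230% in the 5 led by Tnf, and 0.165% in the 32 led by Ccl3 and Ccl4. Nfkbia was at 1229 CPM in the interleukin-led barcodes, 1110 CPM in those led by feedback genes, 1052 CPM in the Tnf-led and 518 CPM in those led by Ccl3 and Ccl4. Immediate early genes made up a median of 0.885%, 0.689%, 0.856% and 0.553% of UMIs in the same order. The barcodes led by Ccl3 and Ccl4 were thus the lowest of the 4 in all 3 of these values, while the ranges of both shares overlapped between all of them. Some genes were carried by single barcodes. One Tnf-led barcode gave 35.7% of the Cxcl10 UMIs of the whole set, and 1 interleukin-led barcode gave 45.6% of those of Ccl7. The same Tnf-led barcode gave 77 of the 167 Nfkbia UMIs of the 5 Tnf-led barcodes.

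Outside the 9 rule genes, the cytokine-high barcodes had more RNA of immediate early genes and of NF-kB feedback genes. Among 2696 genes with at least 50 CPM in the cytokine-high or the other barcodes, 64 genes (2.37%) were higher by 1.5-fold or more with an interval clear of 1 and 17 (0.631%) were lower. These genes were measured in the same barcodes that the rule selected, so the counts describe the set and carry no test.

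Among the 20 genes named for a high ratio, the highest was Egr1 (chr18:34859823-34864984), a zinc finger factor induced by growth signals, at 287 CPM (255 to 322) in the cytokine-high barcodes and 36.0 CPM (32.4 to 40.0) in the others, a ratio of 7.98 (6.81 to 9.33). Fos (chr12:85473890-85477273), a subunit of the AP-1 factor, was at 870 CPM (814 to 929) in the cytokine-high barcodes and 139 CPM (132 to 146) in the others, a ratio of 6.26 (5.75 to 6.82). Per barcode, Fos ran between 0 and 4977 CPM with a median of 662 in the cytokine-high set, against a median of 64.5 in the others, and 40 of the 55 were above the upper quartile of the others. The 2 sets overlapped, since single barcodes among the others reached 3729. Other AP-1 genes were also higher, Fosb at 97.1 and 28.5 CPM, Junb at 900 and 314 CPM, Jun at 528 and 206 CPM and Jund at 245 and 102 CPM. Their ratios were 3.41, 2.87, 2.56 and 2.41, so the Jun members stood apart less than Fos.

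The CD library as a whole had as much or more of these transcripts. Fos was at 1060 CPM in CD, Egr1 at 286 CPM, Jun at 1835 CPM, Junb at 1213 CPM and Jund at 921 CPM. The cytokine-high barcodes therefore had far more Fos and Egr1 than the other Repop D5 barcodes and about as much as the average CD barcode. For Jun and Jund they stayed below CD. The immediate early list summed to 7096 CPM in the cytokine-high barcodes, 2788 CPM in the others and 10971 CPM in CD. Treatment and library cannot be told apart here, since each group is 1 library.

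Over the whole list of immediate early genes, 30 of 36 measured members (at least 10 CPM in either set) were higher by 1.5-fold or more in the cytokine-high barcodes and none was lower. At this lower minimum 217 of 7441 genes (2.92%) were higher and 152 (2.04%) were lower. The median log2 ratio of the list, on log2(CPM + 1) sums, was 1.24, and that of all 7441 genes was -0.01. The list includes Nr4a1, an orphan nuclear receptor, at 99.1 CPM in the cytokine-high barcodes and 18.7 CPM in the others, Atf3, a stress-induced repressor, at 104 and 22.7 CPM, and Ier2 at 366 and 74.2 CPM. The immediate early share of UMIs exceeded the median of the other barcodes in 52 of the 55 and the level above which 10% of the others lay in 44 of the 55.

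NF-kB feedback genes were the second group. Nfkbia (chr12:55489410-55492647), which codes for IkB alpha and holds NF-kB in the cytoplasm, was at 809 CPM (755 to 866) in the cytokine-high barcodes, 135 CPM (128 to 142) in the others and 530 CPM in CD. Its ratio within Repop D5 was 6.01 (5.50 to 6.56). The median barcode had 510 CPM of it in the cytokine-high set and 99.9 in the others, and 40 of the 55 lay above the upper quartile of the others. Its promoter, printed above, holds the match closest to the start of the 3 higher genes shown. The related nuclear IkB proteins Nfkbiz and Nfkbid were at 182 and 86.3 CPM in the cytokine-high barcodes, against 41.7 and 22.3 CPM in the others, ratios of 4.37 and 3.88. Cd83, an activation marker of antigen-presenting cells, was at 321 and 90.5 CPM.

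The subunits of the factor itself did not differ in this way. Nfkb1 was at 96.1 CPM in the cytokine-high barcodes and 82.6 CPM in the others, a ratio of 1.16 (0.935 to 1.44), and Rel was at 27.5 and 29.8 CPM, a ratio of 0.920 (0.601 to 1.36). In the list of NF-kB subunits and feedback genes, 6 of 22 measured members were higher and none was lower. They were Gadd45b, Nfkbia, Nfkbiz, Nfkbid, Cd83 and Zc3h12a, an RNase that cuts cytokine transcripts, and the median log2 ratio of the list was 0.22. Gadd45b, a survival factor downstream of NF-kB, was at 36.3 CPM in the cytokine-high barcodes and 4.99 CPM in the others. The antioxidant enzyme Sod2, another known target of the factor, was at 56.9 and 67.6 CPM.

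**Figure D3:**
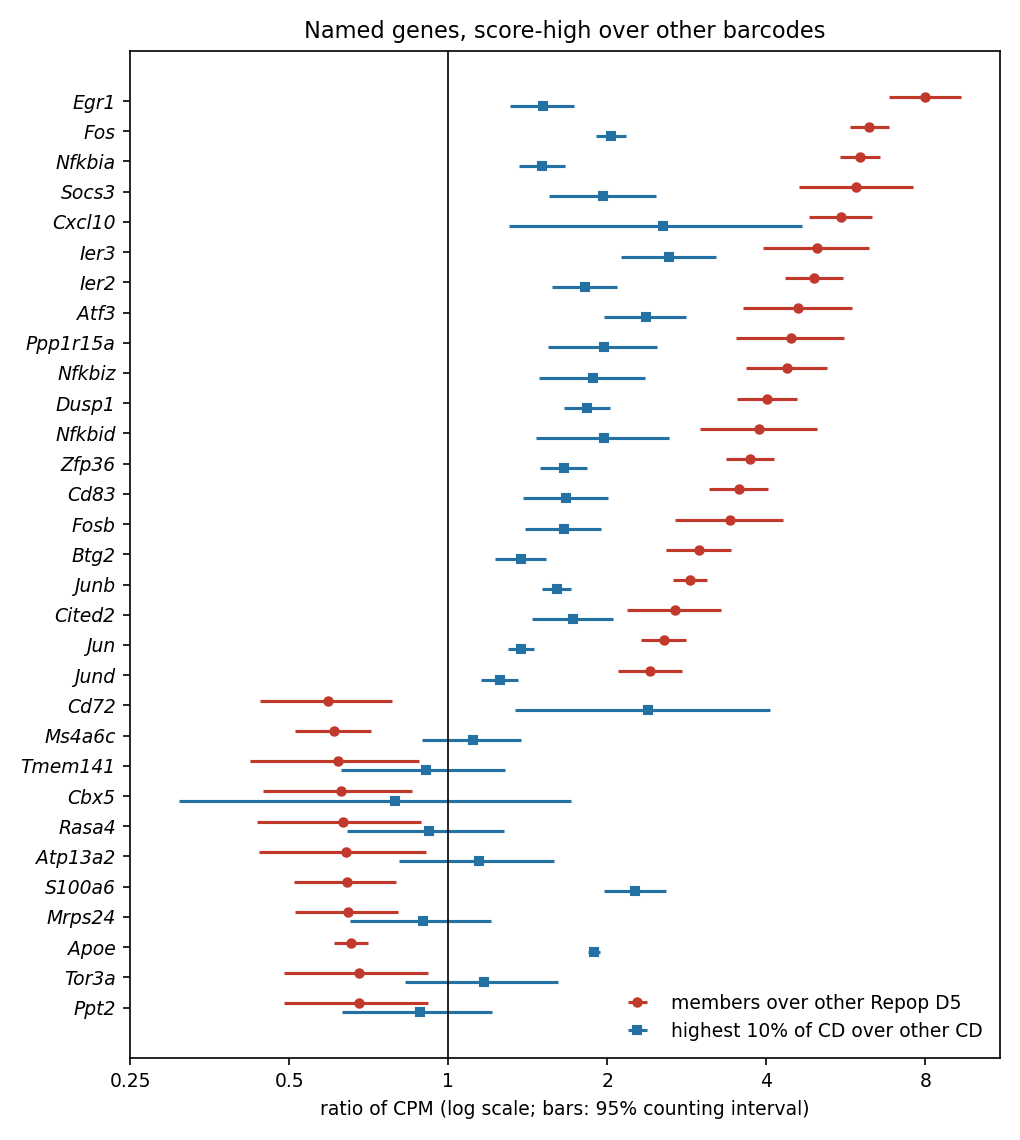
Points are ratios of CPM on a log axis with exact 95% intervals for counting error, for the 20 named higher and 11 of the named lower genes, in cytokine-high (members) over other Repop D5 barcodes and in the highest 10% of CD barcodes by the same score over the other CD barcodes. The 20 higher genes, named for their high ratios in Repop D5, lie above 1 in both libraries and closer to 1 in CD. Of the lower genes shown, Cd72, S100a6, Apoe, Ms4a6c, Atp13a2 and Tor3a lie above 1 in CD, the last 3 with intervals that include 1.

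Other brakes on signalling and RNA stability were among the 20. Socs3, an inhibitor of JAK kinases, was at 104 CPM (85.1 to 126) in the cytokine-high barcodes and 17.6 CPM (15.1 to 20.4) in the others. Zfp36 (tristetraprolin), which destabilises the messengers of Tnf and other cytokines, was at 488 and 131 CPM, and 44 of the 55 barcodes were above the upper quartile of the others. Dusp1, a MAP kinase phosphatase, was at 320 and 79.7 CPM, and it was the only 1 of 7 measured MAP kinase phosphatases outside the rule that was 1.5-fold or more higher. Ppp1r15a (GADD34), which directs the removal of phosphate from eIF2 alpha, was at 104 and 23.4 CPM, and the antiproliferative gene Btg2 was at 248 and 83.2 CPM. Ier3, an early response gene linked to survival, was at 114 and 22.9 CPM, and Cited2, a co-regulator that binds CBP/p300, was at 122 and 45.3 CPM. Most of the SOCS and JAK-STAT feedback list did not follow Socs3. Of its 14 measured members 1 was higher and 1 lower.

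Among chemokines outside the rule, 4 of 11 measured members were higher and 1 was lower, with a median log2 ratio of 0.34. Ccl7, a ligand of Ccr2, was at 157 CPM in the cytokine-high barcodes and 17.7 CPM in the others, a ratio of 8.88 that was 4.91 without the barcode with the most Ccl7. Cxcl10, an interferon- and NF-kB-induced ligand of Cxcr3, was at 330 CPM (295 to 367) in the cytokine-high barcodes and 59.6 CPM (54.9 to 64.6) in the others, a ratio of 5.53 that was 3.74 without the barcode with the most of it. Cxcl2, a neutrophil attractant, was at 90.2 and 23.2 CPM. Ccl2, the main monocyte attractant, was at 640 and 320 CPM, a ratio of 2.00 (1.83 to 2.18). Ccl12, another ligand of Ccr2 in mice, was at 1046 and 962 CPM and hardly differed, and Pf4 was at 38.3 and 58.1 CPM. In CD, Ccl7 was at 313 CPM and Pf4 at 429 CPM, both above the cytokine-high barcodes, whereas Cxcl10 was at 10.7 CPM.

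Some further secreted factors and sensors differed. Over all genes at the same minimum of 10 CPM, 217 of 7441 (2.92%) were higher. Of 15 measured cytokines and growth factors outside the rule, 5 were higher, Tnfsf9 (39.2 CPM in the cytokine-high barcodes, 4.79 CPM in the others), Osm (39.2 and 10.8 CPM), Il6 (29.4 and 8.39 CPM), Csf1 (11.8 and 4.49 CPM) and Il16 (39.2 and 24.0 CPM). A single barcode gave 47.5% of the UMIs of Tnfsf9, whose ratio was 8.19 with it and 4.45 without it. Tgfb1, which microglia need for their identity, was at 321 and 302 CPM. Il10, Il12a, Il12b and Il23a had no UMI in the cytokine-high barcodes, which allows each up to 2.94 CPM there. None of the 13 measured receptors of TNF and interleukin 1 was 1.5-fold higher or lower. Among 19 Toll-like receptor sensing genes 4 were higher, the co-receptor Cd14 at 298 and 128 CPM, the adaptor kinase Irak2 at 25.5 and 13.7 CPM, the kinase Map3k8 at 25.5 and 14.6 CPM, and Tlr1, while Tlr4, the receptor for lipopolysaccharide, was at 14.7 and 18.7 CPM. Of 11 inflammasome genes, 2 were higher, the sensor Nlrp3 at 45.1 and 26.4 CPM and Casp4 at 22.6 and 12.5 CPM.

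Genes that act on cell death and survival formed a smaller group. Of 18 measured members of the apoptosis and survival list 6 were higher and none lower, with a median log2 ratio of 0.26. Pmaip1, a BH3-only inducer of apoptosis also known as Noxa, was at 21.6 CPM in the cytokine-high barcodes and 4.69 CPM in the others. Bcl2a1b, a copy of the anti-apoptotic A1 gene, was at 572 and 295 CPM. Mcl1, Bcl2, Bcl2a1d and Bcl2a1a were the other members, and reads of the near-identical Bcl2a1 copies may be split between them. The list thus held higher members that oppose apoptosis and 1 that promotes it. Cdkn1a, the p21 inhibitor of the cell cycle, was at 249 and 137 CPM, and it was the only higher member of 14 measured G1 genes.

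Proliferation, the main feature of a refilling population, did not separate the cytokine-high barcodes as a list. None of 31 S phase genes was past 1.5-fold in either direction, with a median log2 ratio of -0.16, and of 37 G2 and mitosis genes 1, Kif23, was lower, with a median of -0.10. Mki67, a marker of dividing cells, was at 85.3 CPM (68.4 to 105) in the cytokine-high barcodes, 125 CPM (118 to 132) in the others and 1.49 CPM in CD, and it was 1.47-fold lower (1.18 to 1.85) in the cytokine-high set than in the others. Top2a was at 112 and 154 CPM, and Cdk1 at 117 and 115 CPM. Outside these lists, and chosen after their values were seen, the histone gene Hist1h2ap was at 120 CPM in the cytokine-high barcodes and 257 CPM in the others, a ratio of 0.466 (0.385 to 0.559). Hjurp, the chaperone that loads the centromeric histone, was at 22.6 and 50.6 CPM, a ratio of 0.446 (0.280 to 0.676). The G2 and mitosis list summed to 2885 CPM in the cytokine-high barcodes, 3110 CPM in the others and 287 CPM in CD, so both sets of Repop D5 barcodes stood far above CD.

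Lists that describe the state of microglia held few members past 1.5-fold. Of 24 homeostatic genes, Rhob alone was higher, at 357 and 220 CPM, and the list's median log2 ratio was -0.01. Receptors of this list ran in both directions, Gpr34 at 394 and 314 CPM and P2ry13 at 108 and 141 CPM. Of 23 genes of the disease-associated state 1 was higher and 2 were lower. No member of the glycolysis list (16 measured), of MHC class I (12), of MHC class II (8) or of complement and Fc receptors (13) was past 1.5-fold. Heat shock and dissociation stress genes, which rise when tissue is handled warm, held 2 higher members, 1 lower and 15 neither. Dnajb1 was at 68.7 CPM in the cytokine-high barcodes and 39.8 CPM in the others, Hspa1a at 167 and 139 CPM, Hspa1b at 42.2 and 65.3 CPM and Hspa8 at 1891 and 1601 CPM. The part of handling in the immediate early values was not tested.

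**Figure D4:**
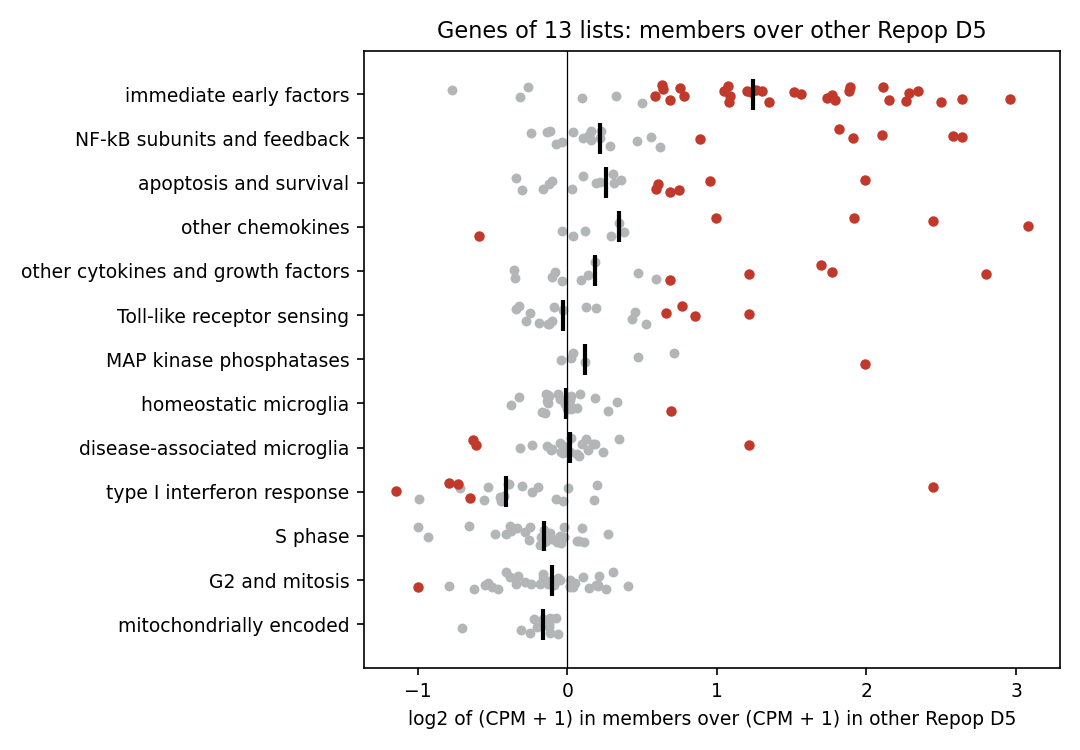
Each point is 1 measured gene of 13 lists, placed by its log2 ratio of CPM + 1 in cytokine-high (members) over other Repop D5 barcodes, in red where it is past 1.5-fold with an interval clear of 1 and grey otherwise, with a bar at the median of the list. The bar of the immediate early list stands at 1.24, that of the homeostatic list at -0.01 and that of the interferon list at -0.41.

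Of 22 measured genes of the type I interferon list 4 were lower and 1, Cxcl10, was higher, and the median log2 ratio was -0.41. Isg15, a ubiquitin-like modifier, was at 28.5 CPM in the cytokine-high barcodes and 47.8 CPM in the others. Ifit3 was at 8.83 and 20.8 CPM, and Oas1a was also among the lower genes. The number of lower members was 2 with no filter on barcodes, and 0 with the highest 20% taken, after thinning or with a random 50% of the UMIs, and the median after thinning was 0.07. The list's summed level was nevertheless 2791 and 2790 CPM, with Ifi27l2a at 1415 and 1409 CPM.

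The 12 named lower genes differed far less than the higher ones, with folds between 1.48 and 1.69. Larger lower folds lay outside the named set, in genes with a UMI in too few barcodes for the naming rule, Ngp at 2.43-fold, Hjurp at 2.24-fold, Camp at 2.15-fold and Hist1h2ap at 2.15-fold. Cd72, an inhibitory receptor, was at 52.0 CPM (38.9 to 68.0) in the cytokine-high barcodes and 87.7 CPM (82.0 to 93.7) in the others. Ms4a6c, a membrane protein of monocytes and macrophages, was at 154 CPM (131 to 180) and 254 CPM (244 to 264). Apoe, the lipid carrier that microglia raise in disease, was at 740 CPM (688 to 794) and 1130 CPM (1109 to 1151), but the median barcode had 443 CPM of it in the cytokine-high set and 407 in the others, whose highest barcode reached 57519. After each barcode was thinned to 3000 UMIs Apoe stood at 1.44 times the level of the others. Further genes were Tmem141, Cbx5 (heterochromatin protein 1 alpha), Rasa4, Atp13a2, S100a6, Mrps24, Tor3a and Ppt2. All but S100a6 and Mrps24 of these 8 were under 70 CPM in both sets, and the direction turned for Rasa4 after thinning and for Tor3a with barcodes chosen on 50% of the UMIs.

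Across the score as a whole, the genes that went with it did so mainly at its top. The 553 barcodes were split into 10 bins of like size by score. Fos was at 65.4 CPM in bin 1, the lowest, 85.2 CPM in bin 5, 334 CPM in bin 9 and 870 CPM in bin 10, the cytokine-high barcodes. Nfkbia was at 79.2, 123, 234 and 809 CPM in the same bins. The immediate early list summed to 2169, 2489, 3957 and 7096 CPM, and the NF-kB list to 783, 907, 1179 and 2144 CPM. The homeostatic list stayed between 22617 and 25546 CPM over all bins, with no order. Ms4a6c was the member of the lower group with the most even course, at 350, 254, 199 and 154 CPM in those 4 bins. The median depth of the bins ran between 11842 and 20517 UMIs.

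**Figure D5:**
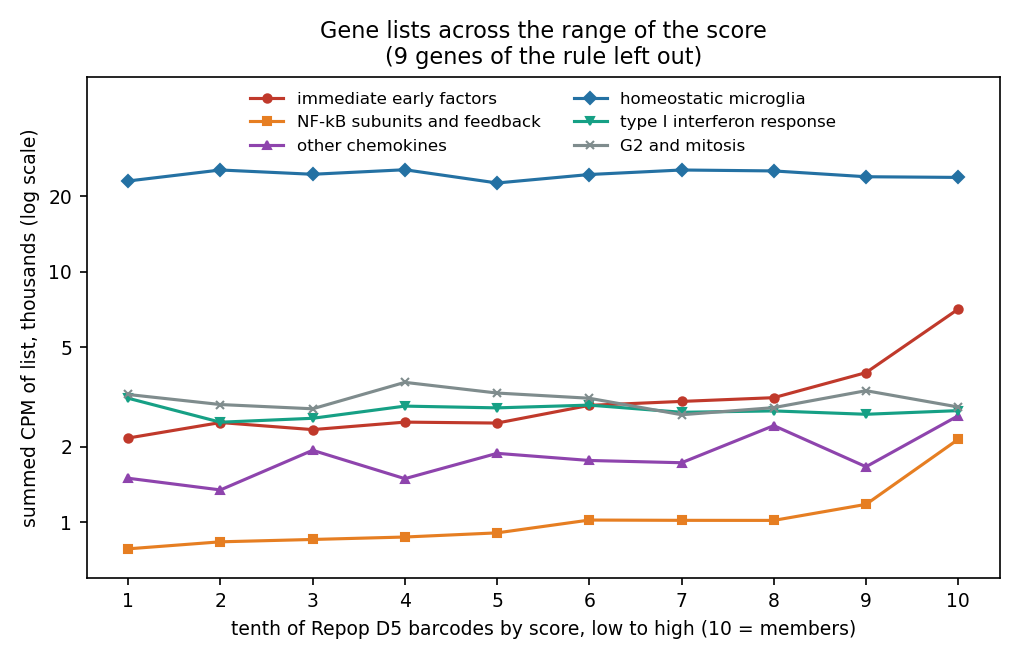
Lines give the summed level of 6 gene lists, in CPM on a log axis, over 10 bins of the Repop D5 barcodes by score, low to high, bin 10 being the cytokine-high barcodes (members). The immediate early and NF-kB lists stand highest in the last bin, at 7096 and 2144 CPM, while the homeostatic list lies between 22617 and 25546 CPM throughout.

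Selection by other gene lists found partly the same barcodes. Among the highest 10% by the share of NF-kB subunits and feedback genes, 35 of 55 (63.6%) were cytokine-high, and among the highest 10% by immediate early share 31 of 55 (56.4%). For apoptosis and survival genes the number was 21, for MAP kinase phosphatases 20, and for Toll-like receptor sensing 13. The numbers for lists of cell cycle and identity were 13 for G1 cyclins and inhibitors, 6 for G2 and mitosis, 4 for S phase and 3 for homeostatic genes. By their size alone, the cytokine-high barcodes are 9.95% of the filtered barcodes.

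The immediate early share was then held roughly alike. When the 55 cytokine-high barcodes were set against 55 other barcodes with a like immediate early share, a comparison added after seeing the data, the medians of that share were 0.616% and 0.566%. Nfkbia was then at 809 CPM in the cytokine-high barcodes and 313 CPM in the matched ones, a ratio of 2.58 (2.23 to 2.99), Cd83 at a ratio of 2.83 (2.23 to 3.63), Ier3 at 3.09 (2.03 to 4.84) and Cxcl10 at 3.79 (2.90 to 5.01). The matched share is a sum over the immediate early list, which holds Ier3 as well as Fos and Fosb, so the matching bears on the ratios of its members and no contrast is read from them. Within that list 5 of 38 measured genes were 1.5-fold or more higher in the cytokine-high barcodes and 4 lower. Its median log2 ratio was still 0.34, so the match was not complete. Socs3 had a ratio of 2.32 (1.56 to 3.53), Ier2 of 2.1 (1.72 to 2.59), Egr1 of 2.06 (1.64 to 2.60), Fos of 1.36 (1.21 to 1.52) and Fosb of 0.737 (0.553 to 0.983). Dusp1, which is not on the list, had a ratio of 0.967 (0.818 to 1.14). Of the other named higher genes, Jun (1.09), Atf3 (1.18), Btg2 (1.29), Junb (1.30), Zfp36 (1.32), Ppp1r15a (1.34) and Jund (1.34) were below 1.5. Nfkbid (1.68), Nfkbiz (1.73) and Cited2 (1.96) were above it. Of 23 NF-kB genes 5 were higher and 1 lower. Of 30 S phase genes 6 were higher and 0 lower, and of 8 MHC class II genes 0 were higher and 4 lower. The matched barcodes were shallower, with a median of 10828 UMIs against 16264.

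The control library held barcodes with scores as high. At or above the cut of Repop D5 lay 62 of 609 CD barcodes (10.2%, exact 95% interval 7.89 to 12.9), and 1 of them exceeded the highest Repop D5 score, with 6.79% of its UMIs from the 9 genes. After thinning every barcode to 3000 UMIs, a median over 20 draws of 61.5 of 553 Repop D5 barcodes and 76 of 599 CD barcodes reached the cut, with ties at the few rule UMIs that remain. CD barcodes had fewer UMIs, a median of 5982, and 100 of 609 had none of the 9 genes. High scores were thus present in both libraries, and the labels give no mouse of origin that would show how such barcodes fall over animals.

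Applied within CD, the same rule took 61 barcodes from that library. Of the 20 named higher genes 17 were 1.5-fold or more higher in these CD barcodes than in the other 548, the exceptions being Btg2, Jun and Jund. Of these 17, Cxcl10 was below 50 CPM in both CD sets, so it is not among the 31 shared genes given below. Over all genes at 50 CPM in CD, 111 of 3268 (3.4%) were higher and 76 (2.33%) lower. The 31 genes higher in both libraries made up 48.4% of the 64 found in Repop D5 and 27.9% of the 111 found in CD. Over the 2305 genes at 50 CPM in both libraries the log2 ratios of Repop D5 and CD were only weakly related, with a Spearman correlation across genes of 0.094 and a Pearson correlation of 0.334, and genes are not independent replicates. Fos was at 1957 CPM in the highest 10% of CD and 963 CPM in the other CD barcodes, and Nfkbia at 762 and 506 CPM. For all 20 the ratio was smaller in CD than in Repop D5, a difference that was not tested. The 20 were named for their high ratios in Repop D5, so no weaker pattern in CD can be read from this. Outside the 20, genes ran both ways. Ccl7 had a ratio of 8.88 in Repop D5 and 3.59 in CD, and Ccl2 of 2.00 and 3.28. In the highest 10% of CD and the other CD barcodes, Cxcl10 was at 23.8 and 9.33 CPM, Ccl7 at 900 and 250 CPM, and Ccl2 at 740 and 226 CPM. Of the immediate early list 18 of 35 measured genes were higher in the highest 10% of CD, where at the minimum of 10 CPM 271 of 8455 genes (3.21%) were higher and 213 (2.52%) lower.

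The named lower genes were not shared. None of the 12 named lower genes was 1.5-fold lower in CD, and Cd72, S100a6 and Apoe were higher there, Apoe at 12247 CPM in the highest 10% of CD and 6488 CPM in the other CD barcodes. Of the genes at 50 CPM in both libraries, only Camp and Ngp, granule proteins of immature neutrophils, were lower in both. Hist1h2ap did not reach that minimum in CD. It was also lower there, at 8.50 CPM in the highest 10% and 23.4 CPM in the others, a ratio of 0.363 (0.116 to 0.870). The highest 10% of CD also held more barcodes of other kinds than the cytokine-high set, 12 of 61 against 1 of 55, and 9 of the 12 had mostly neutrophil markers. The values in CD are thus those of a more mixed set, and its part in the CD ratios was not tested.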

How the data were processed

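The authors deposited 1 matrix of unnormalised UMI counts over 27998 genes for each of the 2 libraries, made with Cell Ranger 2.1.0 on mm10 per the submitters' processing notes. Which annotation they used, and how cells were called, is not given in the sources used here. The authors' pooled matrix was not used here. Filters and the rule are as described in the report. UMIs were summed over the barcodes of a set, scaled to CPM, and compared as ratios with exact conditional binomial 95% intervals. CPM have exact Poisson intervals and shares exact Clopper-Pearson ones, all for counting error only. A gene counted as higher or lower at 1.5-fold or more with an interval clear of 1. No differential expression test was run, since each group is 1 library and the barcodes were chosen on the same counts. The steps were tested on simulated data and run in Python 3.11.15 with numpy 2.4.6, scipy 1.17.1 and pandas 2.3.3.

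The members and the 42 gene lists (652 genes, 8 of them not in the gene files) were chosen with earlier results of these data known. Named are the 9 rule genes, then the 20 highest and 12 lowest ratios of genes that reached 50 CPM, had an interval without 1 and had a UMI in at least 50% of the barcodes of the higher set. Predicted and sex-linked genes and those for haemoglobin, ribosomal proteins and mitochondrial transcripts were passed over. In each list the 2 highest, 2 lowest and 2 most abundant genes may be named, as may P2ry12, Tmem119, Cx3cr1, Csf1r, Mki67 and Ccl2, and members of small groups were named after their values were seen. All 47 named gene identifiers were found in GENCODE M21. Promoters came from RefSeq (GRCm38.p6), and Ccl4, Egr1, Ier2, Nfkbiz, Cd83 and Tor3a were among those not matched in that table. One named lower gene is not reported here. Alternatives covered filters, the share taken, depth, scaling, gene minimum and fold.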

Additional observations from a re-analysis of the deposited data

How the results depend on the processing

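The ratios of the 20 named higher genes stayed at 1.5 or more in all 280 values under the alternative settings chosen at the start, the lowest being 1.73. The 20 were named for high ratios in the same barcodes, so this is no independent support. The 280 values leave out the comparison at like immediate early share, where several of the 20 fell below 1.5, the lowest to 0.737. The counts of genes past the fold also moved. Against 64 higher and 17 lower genes, taking the highest 5% gave 104 and 59, the highest 20% gave 3 lower, thinning to 3000 UMIs gave 146 and 62, choosing with a random 50% of the UMIs gave 45 lower, and a stricter filter on genes and mt- share gave 41 lower. Totals without rule, mt- and ribosomal protein genes gave 34 lower, a minimum of 10 CPM gave 217 and 152, one of 200 CPM gave 25 and 3, a 2-fold limit gave 34 and 4, and the comparison at like immediate early share, chosen after seeing the data, gave 90 lower. Fewer or more barcodes also moved the CD barcodes at the cut, 36 at the 5% cut and 148 at the 20% cut. Directions turned for Cx3cr1 with the highest 20% (1.02), for Rasa4 (1.86) and Apoe (1.44) after thinning, for Tor3a with a random 50% of UMIs (1.15), and at like immediate early share for Dusp1 (0.967), Fosb (0.737) and P2ry12 (0.885). The cause of these shifts was not tested. Over all settings, 462 of 570 gene ratios and 659 of 816 list counts kept within the limits. The medians of the SOCS and disease-associated lists changed sign with trimmed-mean scaling. The alternatives on the pooled matrix were not run. No paired analysis was possible because each group is 1 library. The small differences of most named lower genes rest on few UMIs in the cytokine-high barcodes, which limits what can be said of those genes. Apoe had 754 UMIs there, but its level was uneven, and the highest of the other barcodes reached 57519 CPM against their median of 407.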
